A study of Homo sapiens with 12 samples.

Results

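TOP mRNAs begin at the cap with a C followed by an unbroken stretch of pyrimidines, the 5′ terminal oligopyrimidine (TOP) sequence. They encode ribosomal proteins and many factors of translation, and their loading onto ribosomes is known to follow nutrient and growth signals through the kinase mTORC1 and the cap-binding protein LARP1. The set described here holds transcripts of elongation factors and other translation-linked genes of this class. Of 8 genes listed by Ensembl transcript identifier, 5 were found in the count files, each through 1 transcript, out of 18338 transcripts listed in any of the 12 libraries. They were EEF1A1 (ENST00000316292), EEF2 (ENST00000309311), EEF1G (ENST00000329251), TPT1 (ENST00000530705) and EIF4B (ENST00000262056). Neither alternative EEF1A1 identifier (ENST00000309268, ENST00000331523) was listed, nor were those given for EEF1B2 (ENST00000392222), PABPC1 (ENST00000318607) and NPM1 (ENST00000296930), so these 3 genes have no value here. All 5 transcripts found were listed in each of the 12 libraries and passed the filter on low counts of each edgeR fit.

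EEF1A1 delivers aminoacyl-tRNA to the ribosome, and EEF1G is a structural subunit of the complex that recharges it with GTP. EEF2 moves the ribosome along the mRNA after each peptide bond. EIF4B stimulates the helicase that opens the 5′ end of mRNAs during initiation. TPT1, also called TCTP, is an abundant small protein linked to growth and survival.

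The cells were wild-type HEK293T, a transformed human embryonic kidney line, and the label gives GSK-A1, an inhibitor of the lipid kinase PI4KA, as the treatment of every library. Ribosome-protected fragments (RPF, the footprints of translating ribosomes) and polyadenylated mRNA were each sequenced at 0, 60 and 360 min, with 2 replicates per assay and time. No sample with vehicle alone at 60 or 360 min was analysed here, so exposure to the compound and time in culture cannot be told apart. The labels do not say whether replicates came from separate cultures, so p-values measure the spread between these libraries, which may be technical. Library totals ran from 429026 to 1165740 counts. The identifiers could not be paired with symbols through the gene tables used here (0 of 18338 matched). The gene names are therefore those listed with the chosen identifiers, the markers of the line were not checked, and the other translation factors, TOP genes and TOP regulators listed by symbol for comparison were not analysed here.

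The bases around the annotated gene starts are shown first, since the start is what defines a TOP mRNA. They come from RefSeq (GRCh38.p14) and run 5′ to 3′ from 10 bases before the start to 20 bases after it. Capitals mark the run of pyrimidines that begins with C at the start or, for EEF1G, the longest in the window. Longer runs farther downstream, of 8 bases in TPT1 and 10 in EIF4B, are not marked.
EEF1A1: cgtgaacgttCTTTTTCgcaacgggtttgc
EEF2: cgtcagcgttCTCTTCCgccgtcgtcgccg
EEF1G: cgggcggcttaCTTTgcggcagcgccgaga
TPT1: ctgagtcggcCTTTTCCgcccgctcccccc
EIF4B: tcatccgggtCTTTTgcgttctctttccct
They lie at chr6:73521013-73521042 (minus strand), chr19:3985444-3985473 (minus), chr11:62573872-62573901 (minus), chr13:45341164-45341193 (minus) and chr12:53006446-53006475 (plus), in the order shown. Each spans the last bases of the promoter and the first bases of the first exon. The build used for the count files is not given in the sources used here. At the annotated start itself, 4 of the 5 genes had a C followed directly by at least 4 pyrimidines on the sense strand. Among all 35116 annotated starts of the table, 4.07% had such a run. The run was 7 bases long in EEF1A1, EEF2 and TPT1, a length reached by 2.10% of starts, and 5 bases long in EIF4B. The EEF1G start is annotated at an A, and the capitals there mark a run of 4 bases beginning 1 base downstream. A run of at least 5 bases lay anywhere in the 30-base window in 4 of the 5 genes and in 38.4% of all starts. These are matches of letters to one annotated start per gene and do not show where the transcripts in these cells began.

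Footprint levels of the 5 transcripts were followed over time first. Levels are in CPM, the count divided by a library size scaled with the trimmed mean of M-values (TMM), so a value is a share of its library and not an amount per cell. In such bulk libraries, fewer cells and less RNA per cell cannot be told apart. EIF4B was the transcript whose times separated most cleanly. Its RPF level was 369 and 272 CPM at 0 min in replicates 1 and 2, 532 and 433 CPM at 60 min, and 249 and 205 CPM at 360 min. Both libraries of 60 min lay above both of 0 min, and both of 360 min lay below all 4 others. As group values these were 321 ± 68.3 CPM (SD, n = 2), 483 ± 70.1 CPM and 227 ± 31.1 CPM.

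In edgeR's quasi-likelihood test EIF4B footprints had a log2 change of 0.59 from 0 to 60 min and of −0.50 from 0 to 360 min, each with an SE of 0.43. From 60 to 360 min it was −1.09 (SE 0.44), 2.12-fold lower, with an unadjusted p of 0.0233 and a Benjamini-Hochberg adjusted p of 0.576 over 9653 transcripts. Only 3.59% of the transcripts tested had a lower log2 value in that comparison. None of these differences passed an adjusted p of 0.05. Leaving out one library of the compared times moved the last log2 change only between −0.94 and −1.27.

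Separation of replicates at this level was common in the libraries. From 0 to 60 min, both libraries were higher for 1 of the 5 members, EIF4B, and for 15.4% of all transcripts tested. From 0 to 360 min both were lower for 1 member, again EIF4B, and for 13.7% of all. From 60 to 360 min both were lower for 2 members, EIF4B and EEF1G, and for 18.2% of all.

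**Figure D1:**
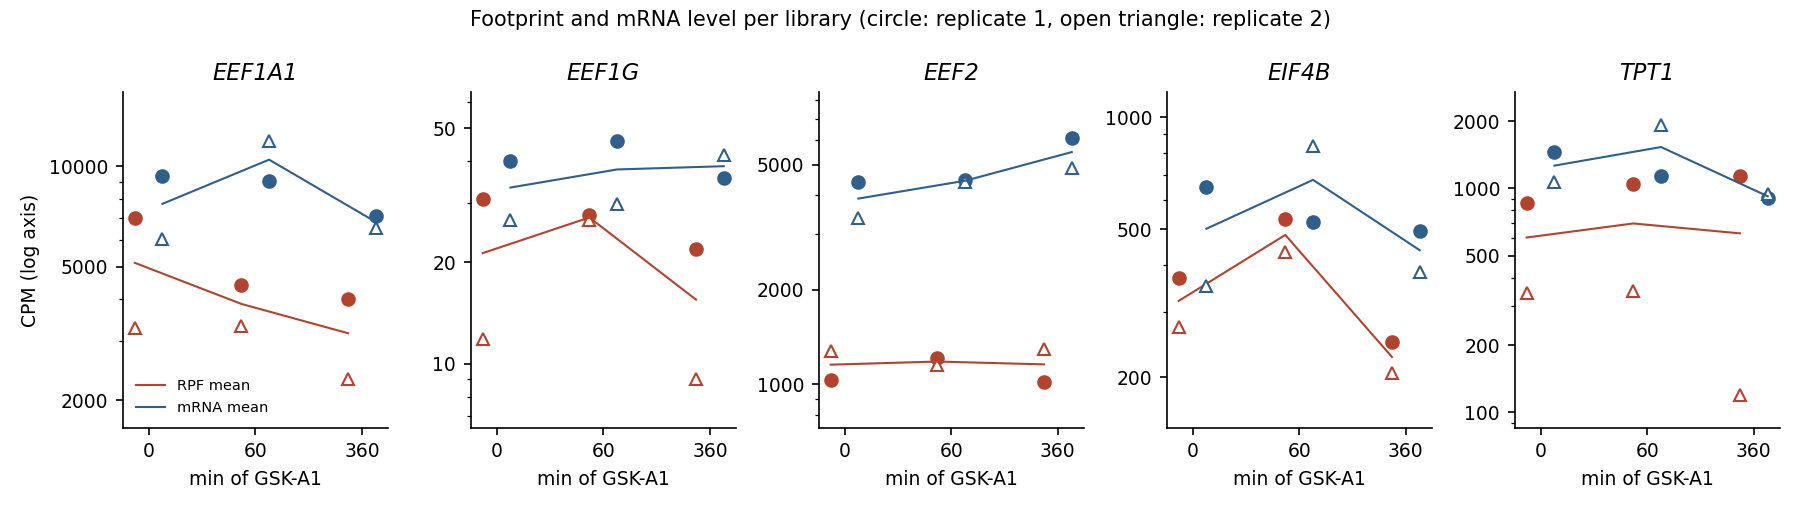
Level in CPM (log axis) of each transcript at 0, 60 and 360 min of GSK-A1, for footprints (red) and mRNA (blue). Filled circles are replicate 1, open triangles are replicate 2 and lines join the means of 2 libraries. EIF4B footprints ran from a mean of 321 CPM at 0 min to 483 CPM at 60 min and 227 CPM at 360 min, while EEF2 footprints stayed between 1018 and 1296 CPM in all 6 libraries.

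EEF1A1 footprints were 7008 and 3285 CPM at 0 min, 4430 and 3327 CPM at 60 min, and 4026 and 2316 CPM at 360 min. Group means were 5147 ± 2633 CPM (SD, n = 2), 3879 ± 780 CPM and 3171 ± 1209 CPM, but the libraries of the 3 times overlapped. The log2 change since 0 min was −0.41 by 60 min and −0.70 by 360 min, each with an SE of 0.80 and so each smaller than its SE. At 60 min the direction rested on the higher 0 min library: without RPF 0 min replicate 1 the log2 change was 0.24.

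EEF2 footprints were the steadiest. They were 1035 and 1274 CPM at 0 min, 1215 and 1148 CPM at 60 min, and 1018 and 1296 CPM at 360 min. The means were 1155 ± 169 CPM (SD, n = 2), 1181 ± 47.2 CPM and 1157 ± 197 CPM. They differed by less than the SD at 0 min.

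EEF1G had few reads, 5 to 34 footprint counts and 13 to 41 mRNA counts per library. Its footprint level was 30.7 and 11.9 CPM at 0 min, 27.6 and 26.8 CPM at 60 min, and 22.0 and 9.05 CPM at 360 min. The 360 min libraries lay below those of 60 min, and those of 0 min spanned nearly the whole range. The log2 change from 60 to 360 min was −0.76 (SE 0.59), with an edgeR adjusted p of 0.784. Whether reads of this gene were counted under other transcripts was not tested.

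TPT1 footprints differed more between replicates than between the means of the 3 times. They were 865 and 343 CPM at 0 min, 1046 and 350 CPM at 60 min, and 1141 and 119.5 CPM at 360 min for replicates 1 and 2. Replicate 1 was 2.53-fold, 2.99-fold and 9.55-fold above replicate 2. The fitted log2 change since 0 min was 0.21 by 60 min and 0.06 by 360 min, each with an SE of 0.78. The first turned to −0.79 without RPF 60 min replicate 1 and to −0.29 without RPF 0 min replicate 2. The second was −0.46 without RPF 0 min replicate 2. It was −2.36 without RPF 360 min replicate 1, where the lone library left is assumed to vary like the other groups, and 0.91 without RPF 360 min replicate 2.

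Over the 5 members, 4 footprint log2 changes from 0 to 60 min were above 0 and 1 below (3 and 2 when scaled by library totals), with a median of 0.21 beside −0.01 for all transcripts tested. That median was −0.16 without RPF 0 min replicate 2, −0.01 without RPF 60 min replicate 1 and 0.83 without RPF 0 min replicate 1. From 0 to 360 min, 2 were above and 3 below 0 (all 5 below when scaled by library totals), with a median of −0.43 beside 0.02 for all. From 60 to 360 min all 5 were below 0 in every scaling tried, with a median of −0.29 beside 0.04. In the main fit, EEF2 was there at only −0.02 (SE 0.57) and TPT1 at −0.15 (SE 0.78). Of all transcripts tested, 51.0%, 47.9% and 46.9% lay below 0 in the 3 comparisons. Without RPF 360 min replicate 1 the medians by 360 min were −1.18 since 0 min and −1.26 since 60 min. They were −0.05 without RPF 0 min replicate 1 and −0.07 without RPF 60 min replicate 1, in that order. The comparisons with 0 min share its libraries. Scaling by library totals alone moved the median log2 change of all transcripts to −0.12 in footprints from 0 to 360 min, and in mRNA to −0.19 from 0 to 360 min and to −0.28 from 60 to 360 min. None of the 5 passed an adjusted p of 0.05 in any footprint comparison, where 0% of the 9653 transcripts passed. Unadjusted edgeR p-values under 0.05 numbered 223, 377 and 753 among all transcripts in the 3 comparisons, in the order given. Among the members there was 1, that of EIF4B from 60 to 360 min. DESeq2 called 1, 1 and 6 transcripts, none of them a member.

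The mRNA levels were followed next, and here EEF2 was highest at the latest time. EEF2 mRNA was 4404 and 3392 CPM at 0 min, 4480 and 4402 CPM at 60 min, and 6078 and 4881 CPM at 360 min. After TMM scaling, both 360 min libraries were the highest, above all 4 others. The means were 3898 ± 716 CPM (SD, n = 2), 4441 ± 55.5 CPM and 5480 ± 846 CPM. The log2 change by 360 min was 0.48 since 0 min (edgeR adjusted p of 0.776 over 9693 transcripts) and 0.30 since 60 min (0.888), each with an SE of 0.52. Scaled by library totals alone, it was 0.31 since 0 min and only 0.04 since 60 min.

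TPT1 mRNA was 1458 and 1071 CPM at 0 min, 1137 and 1926 CPM at 60 min, and 905 and 942 CPM at 360 min. Both 360 min libraries were the lowest of the 6, and their ratio, 0.961, was near 1, unlike that of the TPT1 footprints of that time. The log2 change by 360 min was −0.46 since 0 min (SE 0.49, edgeR adjusted p of 0.773) and −0.74 since 60 min (SE 0.50, adjusted p of 0.653).

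EEF1A1 mRNA was 9373 and 6068 CPM at 0 min, 9020 and 11898 CPM at 60 min, and 7112 and 6522 CPM at 360 min. The 360 min libraries fell within the range of 0 min and below both libraries of 60 min. The log2 change was 0.44 from 0 to 60 min and −0.62 from 60 to 360 min, each with an SE of 0.56. The edgeR adjusted p was 0.9999 for the first and 0.745 for the second.

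EIF4B mRNA was 650 and 352 CPM at 0 min, 522 and 835 CPM at 60 min, and 495 and 383 CPM at 360 min. The 2 libraries of 0 min spanned most of that range, and those of 360 min lay below those of 60 min. The log2 change from 60 to 360 min was −0.64 (SE 0.50), with an edgeR adjusted p of 0.704. Its mean thus took the same order of times as its footprints, 60 min above 0 min above 360 min, with far more overlap between libraries. EEF1G mRNA stayed between 26.7 and 45.7 CPM in all 6 libraries, and its times overlapped.

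From 0 to 60 min all 5 mRNA log2 changes were above 0 in every scaling tried. In the main fit they lay between 0.17 and 0.44, with a median of 0.27 beside −0.02 for all transcripts tested. Of all transcripts, 51.7% lay below 0 in that comparison. In no member did the libraries of those times separate. From 0 to 360 min, 2 were above and 3 below 0 (median −0.19 beside −0.03 for all). Both libraries were higher for EEF2, as for 20.1% of all transcripts, and lower for TPT1, as for 18.8%. From 60 to 360 min, 2 were above and 3 below 0 (1 and 4 when scaled by library totals), with a median of −0.62 beside −0.04 for all. Here both libraries were higher for EEF2, as for 21.0% of all transcripts, and lower for EEF1A1, TPT1 and EIF4B, as for 19.2%. The median from 0 to 360 min rested on the reference library: it was −0.47 without mRNA 0 min replicate 2 and 0.35 without mRNA 0 min replicate 1. None of the members passed in any mRNA comparison by edgeR or DESeq2, and 0 had an unadjusted p under 0.05. Of all 9693 transcripts 0% passed by edgeR. Unadjusted edgeR p-values under 0.05 numbered 133, 865 and 998 in the 3 comparisons, in the same order, and DESeq2 called 0, 19 and 61.

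**Figure D2:**
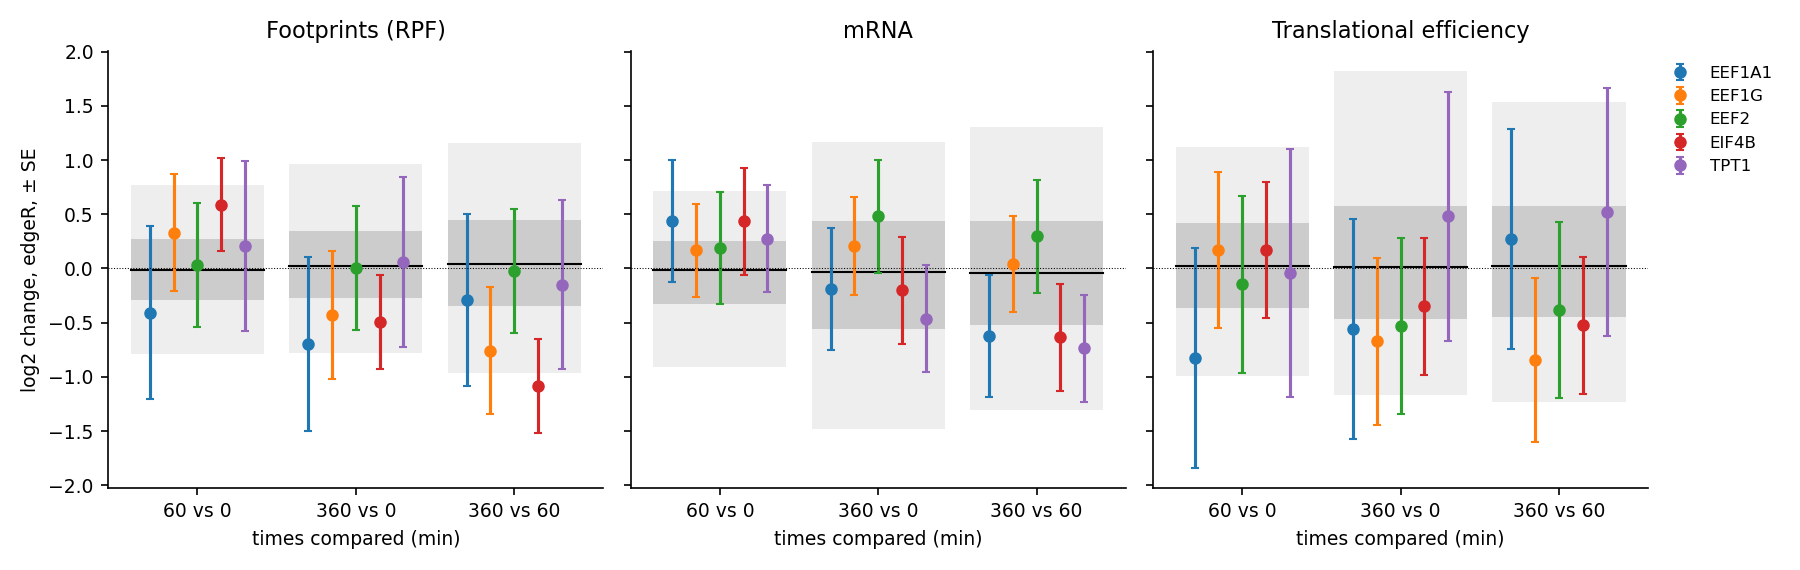
Log2 change of each member (points, bars are ± SE from edgeR) between times in footprints, mRNA and translational efficiency. Dark and light grey boxes span the middle 50% and 90% of all transcripts tested and the black line is their median. The point farthest from 0 among the members is EIF4B in footprints from 60 to 360 min, at −1.09, and EEF2 is the member with the highest mRNA change from 0 to 360 min, at 0.48.

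The level of footprints relative to mRNA was then compared within each time. The ratio does not depend on the length of a transcript or of its untranslated parts if both assays counted the coding sequence alone. The sources used here do not state the counted region, so ratios of different transcripts may not be comparable. The ratio was tested as RPF against mRNA in a fit of all 12 libraries, with TMM scaling within each assay. All 5 members lay below 0 on the log2 scale at each of the 3 times, where 45.4%, 46.6% and 44.1% of the 8632 transcripts tested did so at 0, 60 and 360 min. Their median log2 ratio was −0.66 at 0 min, −1.13 at 60 min and −1.16 at 360 min, beside 0.12, 0.08 and 0.15 for all transcripts. At 0 min it was −1.46 without RPF 0 min replicate 1 and −0.32 without mRNA 0 min replicate 1.

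EEF2 had the lowest ratio of the members at every time. Its mean footprint CPM was 0.296 of its mean mRNA CPM at 0 min, 0.266 at 60 min and 0.211 at 360 min. Over the 4 pairs of an RPF and an mRNA library, the ratio ran from 0.235 to 0.376, from 0.256 to 0.276 and from 0.167 to 0.266. The log2 ratio was −1.77 (SE 0.59), −1.92 (SE 0.59) and −2.30 (SE 0.60) at the 3 times, or 3.41-fold, 3.78-fold and 4.92-fold fewer footprints than mRNA. Only 5.41%, 3.10% and 2.19% of all transcripts had lower values. The edgeR adjusted p-values were 0.0648, 0.0466 and 0.0209, so EEF2 passed 0.05 at 60 and 360 min and missed it at 0 min. A lower RPF than mRNA level was called for 3.93% of all transcripts at 0 min, 4.18% at 60 min and 5.46% at 360 min.

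With the replicate block, the EEF2 log2 ratio was fitted for replicate 1, at −2.02, −2.16 and −2.55. With DESeq2, which kept the difference in library size between assays, it was −1.55, −1.69 and −2.04. Over the other alternatives it ran from −1.96 to −1.57 at 0 min, from −2.02 to −1.85 at 60 min and from −2.50 to −2.09 at 360 min. The EEF2 test did not keep to one side of the threshold. At 0 min it passed in 4 alternatives. Among them were DESeq2 (adjusted p 0.00120) and, for the ratio of replicate 1, the replicate number as a block in edgeR (0.0239). At 60 min the call was lost without a filter on low counts (adjusted p 0.0817). It was also lost without either RPF 60 min library, either mRNA 60 min library, either RPF 0 min library or mRNA 360 min replicate 2, with edgeR adjusted p-values from 0.0559 to 0.222. At 360 min it was lost without RPF 360 min replicate 1 (0.109) or mRNA 360 min replicate 1 (0.0995).

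The other 4 members passed at no time. EEF1A1 had a log2 ratio of −0.61 (SE 0.72), −1.43 (SE 0.73) and −1.16 (SE 0.72) at the 3 times. Its footprint and mRNA libraries overlapped at 0 min and did not at 60 and 360 min. EIF4B had −0.66 (SE 0.45), −0.49 (SE 0.44) and −1.01 (SE 0.45), and its assays separated at 360 min.

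EEF1G had a log2 ratio of −0.65 (SE 0.51), −0.48 (SE 0.50) and −1.32 (SE 0.57) at 0, 60 and 360 min. TPT1 had −1.09 (SE 0.82), −1.13 (SE 0.82) and −0.61 (SE 0.81). Without RPF 360 min replicate 2 the TPT1 value at 360 min was 0.25, the one alternative out of 57 in which a tested member was not below 0. Some of the 57 left out a library of another time, so the compared libraries stayed the same. With the replicate block, which gives the ratio fitted for replicate 1, TPT1 had only −0.16, −0.27 and −0.19 at 0, 60 and 360 min. Ratios of single RPF and mRNA libraries did exceed 1. They reached 1.15 for EEF1A1, 1.15 for EEF1G and 1.05 for EIF4B at 0 min, 1.02 for EIF4B at 60 min and 1.26 for TPT1 at 360 min. Both footprint libraries lay below both mRNA libraries for 2 members at 0 min (24.6% of all transcripts), 4 at 60 min (26.2%) and 4 at 360 min (20.4%). At an unadjusted edgeR p under 0.05 there were 1, 1 and 3 members, beside 2615, 2515 and 2560 of all 8632 transcripts. DESeq2 called EEF2 alone among the members at each time, beside 1439, 1397 and 1450 of all transcripts, in either direction. Its size factors were set within each assay, so its ratios keep the difference in library size between assays. Their median over all transcripts was 0.35, 0.31 and 0.40, beside 0.12, 0.08 and 0.15 in the main fit.

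**Figure D3:**
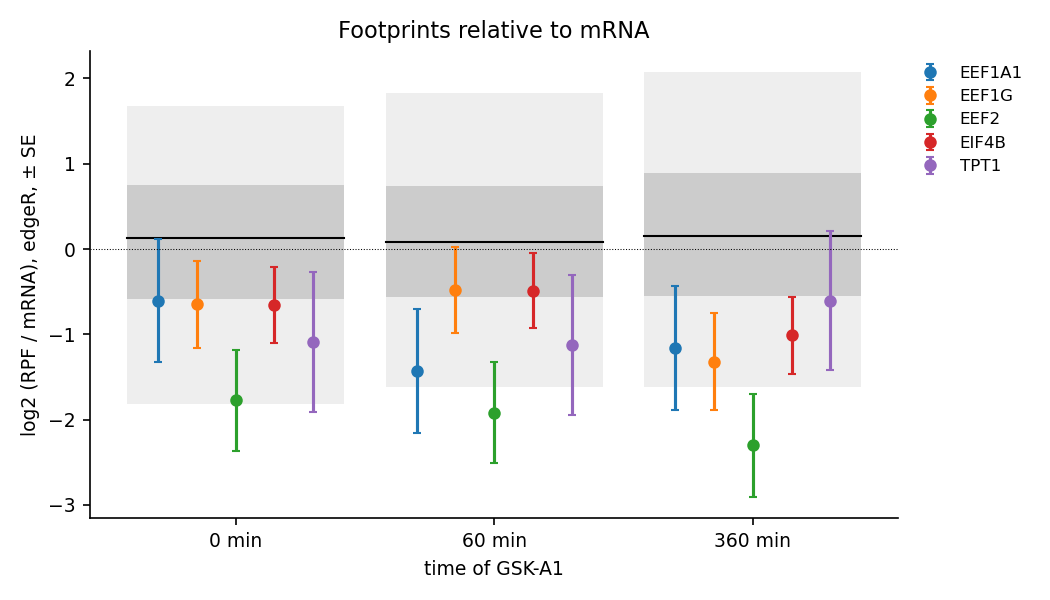
Log2 ratio of footprint to mRNA level (points, bars are ± SE from edgeR) of the 5 members at each time, with grey boxes for the middle 50% and 90% of all transcripts tested and a black line for their median. Each of the 5 points lies below 0 at each time, and EEF2 is the lowest, at −1.77, −1.92 and −2.30.

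A change of these ratios over time is a change in translational efficiency (TE), and was tested by the interaction term between assay and time. No member passed: 0% of the 8632 transcripts did in any of the 3 TE comparisons. EEF1A1 had a log2 change in TE of −0.83 (SE 1.01) from 0 to 60 min. A lower value was found for 7.91% of transcripts, and the change was smaller than its SE. From 0 to 360 min the changes were −0.56 (SE 1.01) for EEF1A1, −0.53 (SE 0.81) for EEF2, −0.67 (SE 0.77) for EEF1G, −0.35 (SE 0.63) for EIF4B and 0.48 (SE 1.15) for TPT1. All 5 were smaller than their SE.

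The direction of these changes turned in 4 members when 1 library was left out. It became 0.079 for EEF1A1 and 0.16 for EEF1G without RPF 0 min replicate 1, 0.057 for EIF4B without mRNA 0 min replicate 2, and for TPT1 −1.93 without RPF 360 min replicate 1 and −0.034 without RPF 0 min replicate 2. From 60 to 360 min, EEF1G had −0.84 (SE 0.76), EIF4B −0.52 (SE 0.63) and EEF2 −0.38 (SE 0.81), while EEF1A1 had 0.27 (SE 1.01) and TPT1 0.52 (SE 1.15). The last 2 turned to −0.19 and −1.88 without RPF 360 min replicate 1, and TPT1 to −0.081 without RPF 60 min replicate 2. Log2 changes in TE were thus above 0 in 2, 1 and 2 members and below 0 in 3, 4 and 3 members in the 3 comparisons. Medians over the members were −0.04 from 0 to 60 min, −0.53 from 0 to 360 min and −0.38 from 60 to 360 min, beside 0.02, 0.01 and 0.03 for all transcripts. Without RPF 0 min replicate 1 the first 2 medians turned, to 0.40 and 0.079, and the last was 0.02 over the 4 members left with at least 10 counts in every library. The EEF2 ratio, past the threshold at 60 and 360 min and not at 0 min, is thus not shown to differ between times. Unadjusted edgeR p-values under 0.05 numbered 151, 489 and 405 among all transcripts in the 3 comparisons, in that order, none of them a member's. DESeq2 called 0, 0 and 3 transcripts, again no member.

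The members did not vary together as 1 block. Over the 12 libraries, with each assay centred on its own mean log2 CPM, EEF1A1 and TPT1 had a Pearson r of 0.79, EEF1A1 and EIF4B 0.69, and EEF1A1 and EEF1G 0.62. TPT1 and EEF1G had an r of 0.66, TPT1 and EIF4B 0.55, and EEF1G and EIF4B 0.55. Among 8631 other transcripts, TPT1 ranked 64th in likeness to EEF1A1, EIF4B 248th and EEF1G 427th. From the other side, EEF1A1 ranked 201st in likeness to TPT1, 184th to EIF4B and 181st to EEF1G. EEF2 stood apart, with r of −0.26 to EEF1A1, −0.42 to TPT1, −0.14 to EEF1G and 0.05 to EIF4B. These values describe 12 libraries, in each of which all transcripts share the same depth and scaling factor, and carry no p-value. They mix gaps between replicates with changes over time.

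Replicates of a time also differed. In log2 CPM with a prior count of 2, EEF1A1 footprints were 2.13-fold, 1.33-fold and 1.74-fold higher in replicate 1 than in replicate 2 at 0, 60 and 360 min. TPT1 footprints were 2.51-fold, 2.98-fold and 9.37-fold higher. The median transcript differed between replicates by 1.32-fold, 1.30-fold and 1.52-fold, in either direction. The TPT1 gap was wider than that of 95.6%, 97.8% and 99.9% of all transcripts tested at the 3 times. EEF2 footprints had the opposite sign at 0 and 360 min and gaps below the median transcript's at all 3 times. In mRNA the gap of EEF1A1 and TPT1 was positive at 0 min and negative at 60 min. What sets the footprint replicates apart was not tested.

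**Figure D4:**
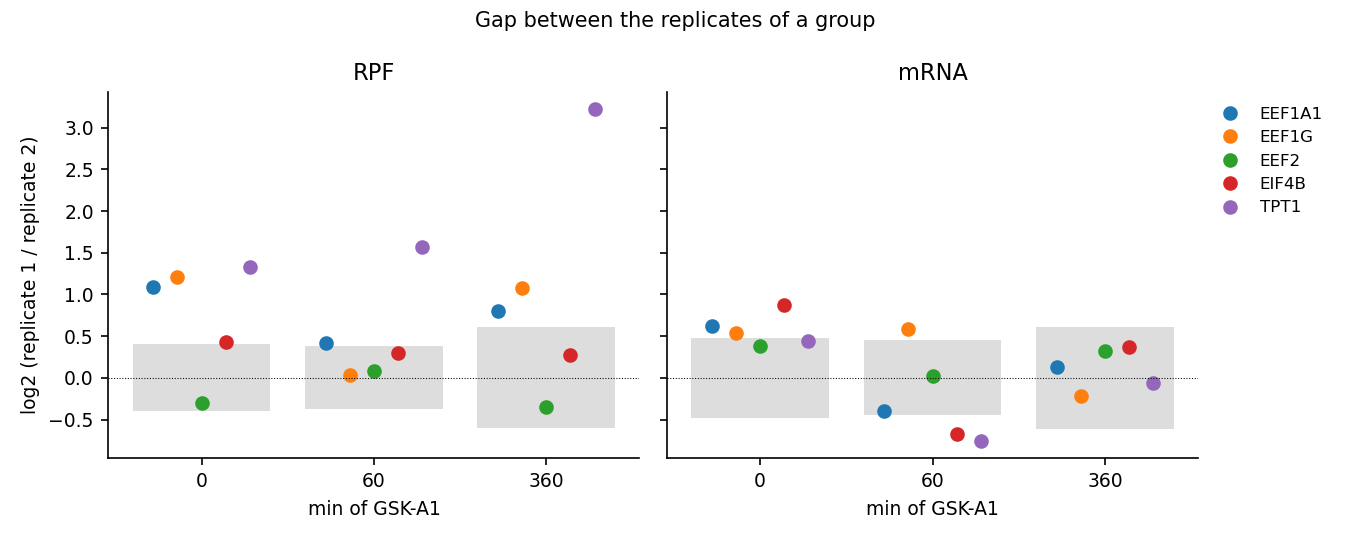
Log2 ratio of replicate 1 to replicate 2 for each member at 0, 60 and 360 min, in footprints and mRNA. Grey boxes reach as far above and below 0 as the median gap of all transcripts tested. TPT1 footprints lie outside the box at every time, up to 3.23 at 360 min, and EEF2 footprints lie inside it at every time.

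As a share of a library, the 5 transcripts took 0.399% to 0.883% of footprint counts and 1.08% to 2.11% of mRNA counts. The lowest footprint share was in 360 min replicate 2, at 0.399% (95% exact Clopper-Pearson interval 0.382 to 0.416), and the highest in 0 min replicate 1, at 0.883% (0.866 to 0.900). Among mRNA libraries the extremes were 0 min replicate 2, at 1.08% (1.06 to 1.10), and 60 min replicate 2, at 2.11% (2.09 to 2.14). Every mRNA library gave these transcripts a larger share than any footprint library. Without EEF1A1 the shares were 0.165% to 0.271% of footprints and 0.479% to 0.796% of mRNA, and again the ranges did not meet. The intervals cover counting error only, since reads copied by PCR are not independent molecules.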

How the data were processed

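Each library's file, as the authors deposited it, holds counts by Ensembl transcript, whole numbers with no normalization. Only transcripts with at least 1 count are listed, and an absent row was taken as 0. The submitters' processing notes name cutadapt 2.8, Bowtie 1.2.3 and STAR 2.7.10a. The counter, build, annotation, counted region, use of strand and handling of multiply mapping reads are not given in the sources used here, so counts of genes with near-identical copies, such as EEF1A1 and TPT1 with their processed pseudogenes, are uncertain. Per the labels' protocols, footprints came from RNase I digestion of monosome and polysome fractions.

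Groups were read from the sample titles. Tests used R 4.3.3 and edgeR 4.0.16 (filterByExpr, TMM, glmQLFit, glmQLFTest) across all transcripts, with time as the only factor in the 6 libraries of an assay and 1 coefficient per assay and time in the fit of 12. P-values were adjusted by Benjamini-Hochberg over each whole table. The SE of a log2 change is its size divided by the root of F. Fits were tested on simulated data, where most of the larger changes put in were called in footprints and mRNA, fewer in TE, and almost none of the smaller ones in any fit. Alternatives were RLE factors, library totals, other filters, DESeq2 1.42.0, the replicate block, fewer libraries and joint TMM. DESeq2's size factors were set within each assay, so its ratios of RPF to mRNA keep the difference in library size between assays. With the replicate block those ratios are fitted for replicate 1. The members and lists were chosen with earlier results of these data known, and every member found is named.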

Additional observations from a re-analysis of the deposited data

How the results depend on the processing

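No member passed in the footprint, mRNA or TE comparisons under any alternative that tested it. EEF1G was not tested in footprints, ratio or TE with at least 10 counts in every library, and DESeq2 gave it no adjusted p in footprints or TE from 60 to 360 min. The number of all transcripts called was 0 in each of those 9 comparisons. In footprints it became 1, 1 and 6 with DESeq2 and 1, 2 and 7 with the replicate block (0 to 60, 0 to 360 and 60 to 360 min), and without a filter 1 in the first and 33 in the last. In mRNA it became 17, 89 and 113 without a filter, and 19 and 61 with DESeq2 in the latter 2. In TE, the last comparison had 3 with DESeq2 and 2 without a filter. Leaving out 1 library gave 0 to 1 in the first 2 footprint comparisons and 0 to 75 in the last, 75 without RPF 360 min replicate 1. RPF against mRNA called 954, 1151 and 1259 transcripts at 0, 60 and 360 min. Without a filter it called 1911 at 0 min and 1759 at 60 min. With DESeq2, whose ratios keep the difference in library size between assays, it called 1439 at 0 min. With at least 10 counts in every library, which tests fewer transcripts, it called 745 at 60 min and 749 at 360 min. Leaving out 1 library gave 0 to 1331 at 0 min, 291 to 1353 at 60 min and 480 to 1266 at 360 min. The low ends were without RPF 0 min replicate 1, RPF 60 min replicate 1 and mRNA 360 min replicate 1. Leaving out any of the other libraries of the tested time, save RPF 360 min replicate 2, also lowered the count by over 1.5 times.

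The TPT1 footprint change from 0 to 360 min was −0.10 with library totals, −0.012 without a filter and −0.43 with the replicate block, and its TE change −0.033 with the block. Leaving out 1 library gave ranges of −2.36 to 0.91 and −1.93 to 1.35 for these, −0.79 to 1.03 for TPT1 footprints from 0 to 60 min and −2.96 to 0.25 for its ratio at 360 min. For EEF1A1 they were −0.83 to 0.24 in footprints from 0 to 60 min and −1.02 to 0.079 in TE from 0 to 360 min. In that TE comparison EEF1G had −1.50 to 0.16 and EIF4B −0.85 to 0.057, and in TE from 60 to 360 min EEF1A1 had −0.19 to 0.62 and TPT1 −1.88 to 1.52. The members' median was −0.47 to 0.35 in mRNA from 0 to 360 min and −1.46 to −0.32 in the ratio at 0 min. In footprints it was −0.16 to 0.83, −1.18 to −0.05 and −1.26 to −0.07 in the 3 comparisons (−0.56 with the replicate block in the last), and in TE −0.33 to 0.40, −1.02 to 0.079 and −0.68 to −0.15. It was 0.06 to 0.62 and −0.83 to −0.26 in mRNA from 0 to 60 and from 60 to 360 min. In the ratio it was −1.62 to −0.54 at 60 min (−0.49 with the replicate block, for replicate 1) and −2.09 to −0.87 at 360 min. The cause was not tested in any of these.

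Replicate numbers are not said to mark a shared dish or day. Differences between replicates 1 and 2 correlated across 4243 transcripts at 0.34 to 0.36 between footprint times and at −0.48 between mRNA at 0 and 60 min. With the numbers of mRNA 0 min exchanged, the block called 0 transcripts in mRNA from 0 to 60 min and 0 from 0 to 360 min. That pairing, and the ratio tests without a library of another time, were chosen after seeing the data. At 13 to 41 mRNA and 5 to 34 footprint counts per library, EEF1G rests on few reads.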
